A study of Rattus norvegicus with 53 samples.

Results

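Cultures of rat blood cells that had received day-60 serum of BB (BioBreeding) rats were compared with cultures that had received allogeneic serum, from Brown Norway (BN) rats other than the cell donor. The comparison used 24 of the 53 arrays of the series. The 12 BB arrays comprised 4 with serum of DRlyp/lyp rats, 4 with such serum to which IL-1RA, the natural antagonist of the interleukin-1 receptor, had been added, and 4 with serum of DR+/+ rats, all from donors 60 days old. The 12 arrays set against them were replicates 4 to 15 of the 15 cultures with allogeneic BN serum, and no array with autologous serum was used. Replicates 4 to 15 were taken because an earlier analysis of these data had grouped them with the day-60 arrays. The labels name no array run. In every culture the responding cells were peripheral blood mononuclear cells (PBMCs) of healthy male BN rats about 180 days old (150 to 200 days), kept for 6 h with 20% serum or plasma, both words being used in the labels. The concentration of added IL-1RA is not in the labels. The age that the labels tie to the serum is 60 days for the BB cultures and 180 days for the allogeneic cultures, so strain and age cannot be told apart. Whether replicates were separate animals or cultures is not in the labels, so p-values measure only the spread between these samples, which may be technical.

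PBMCs are mainly T cells, B cells, natural killer cells and monocytes, with platelets that travel with them through density gradients. Used as a sensor, they respond to cytokines, oxidised lipids and other factors of the donor's serum, and monocytes are the cells among them that make most of the interleukin-1 and chemokines. DRlyp/lyp rats lack most T cells through a mutation of a GIMAP gene and develop autoimmune diabetes, while DR+/+ rats carry the intact gene and remain free of it. The measured cells were BN cells in every culture.

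Values were log2 expression per probe set, normalised by the submitters, and each of the 14217 measured genes was represented by its probe set with the highest mean. The arrays of the 2 sides differed as whole distributions. The standard deviation of the log2 values within an array averaged 2.11 ± 0.0698 in BB cultures and 1.94 ± 0.0987 in allogeneic cultures (SD, n = 12 each, permutation test, two-sided p = 0.00015). Across genes, the difference between groups rose with a gene's mean level (Pearson r 0.51 across genes, which are not independent replicates), and a second quantile normalisation of the arrays brought this to 0.05. RNA integrity was read from actin, as its 3′ minus its 5′ probe set on the log2 scale, which ran from 1.13 to 2.83 in BB cultures and from 2.14 to 3.36 in allogeneic cultures. Its mean was 2.36 ± 0.438 in BB cultures and 2.78 ± 0.387 in allogeneic cultures (SD, n = 12 each, permutation test, two-sided p = 0.0148), so this sign of RNA quality differed between the groups. With it as a covariate, 4488 genes were called higher and 2763 lower, against 4002 and 2515 without it. The array median averaged 5.45 in BB cultures and 5.52 in allogeneic cultures (permutation p = 0.00192). Allogeneic replicates 4, 6, 9, 11 and 12 stood apart on the first principal component, which held 38.3% of the variance, and had the 5 smallest standard deviations, 1.81 to 1.87. In each BB serum the array numbered 4 had the lowest score on this component, and DR+/+ replicate 4 had the lowest actin difference of all 24 arrays.

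**Figure D1:**
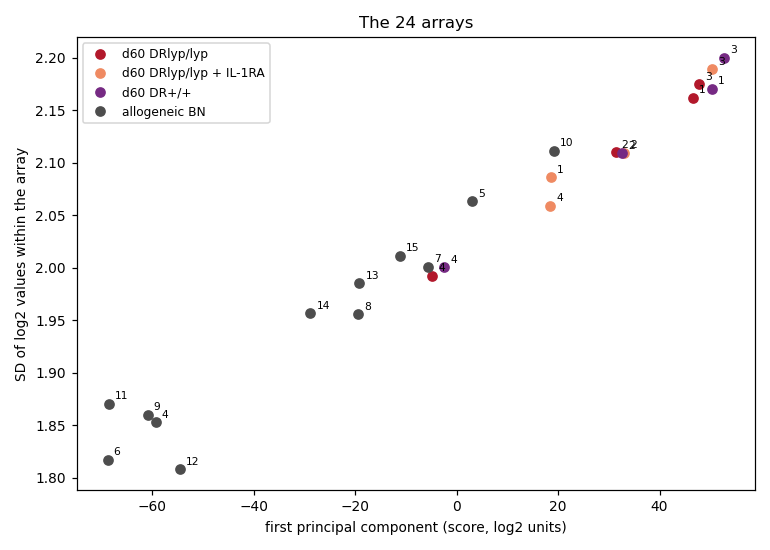
Each of the 24 arrays by its score on the first principal component (x axis, log2 units) and the standard deviation of its log2 values (y axis), coloured by serum and numbered by replicate. Allogeneic replicates 4, 6, 9, 11 and 12 lie at the low left, at standard deviations of 1.81 to 1.87. The other allogeneic arrays, at 1.96 to 2.11, overlap the BB arrays, at 1.99 to 2.20, on both axes.

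Because of this spread, results below are given on the values as deposited, beside 5 further settings where these end a call. These are a second quantile normalisation, a block for the replicate number of the BB arrays, both together, leaving out the 5 allogeneic arrays that stood apart, and all 3 changes at once, called the strictest setting below. Monocyte genes moved with the serum as well. The 6 monocyte markers Cd14, Cd68, Csf1r, Lyz2, Fcgr1a and Mpeg1 were above the array median on all 24 arrays, and 6 of 6 rose as deposited and 2 of 6 in the strictest setting. Their summed linear level ran from 6018 to 9406 (median 7482) in BB cultures and from 1576 to 7751 (median 3127) in allogeneic cultures, so the groups overlapped. In a bulk culture more cells of a type and more RNA per cell cannot be told apart. The part of monocyte content in the results below was not tested.

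In limma's fit of the 4 groups, 6517 of 14217 genes (45.8%) passed an adjusted p of 0.05 between BB and allogeneic serum, 4002 higher (28.1%) and 2515 lower (17.7%). With the replicate block the counts were 4299 in all (30.2%), 2880 higher (20.3%) and 1419 lower (9.98%). After the second quantile normalisation they were 2001 higher (14.1%) and 1912 lower (13.4%), so that 51.1% of calls were higher, against 61.4% as deposited. The share was 50.3% with arrays scaled to one standard deviation and 74.4% with arrays centred on their medians, a centring that moved the median over all genes to 0.12 from 0.04. With the quantile normalisation and the block together the counts were 1305 higher (9.18%) and 1144 lower (8.05%), and without the 5 allogeneic arrays 624 higher (4.39%) and 182 lower (1.28%). In the strictest setting 128 genes were higher (0.9%) and 107 lower (0.753%). A total of 199 genes passed in the same direction in all 6 settings, 122 higher (0.858%) and 77 lower (0.542%). Changes were mostly modest. A log2 difference of at least 1 was reached by 227 genes called higher and 30 called lower, and one of at least 2 by 6 called higher and 0 called lower. In 27 genes (0.19%) each of the 12 BB arrays was above each of the 12 allogeneic arrays, and in 3 genes (0.0211%) each was below.

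Redox and detoxification genes held the largest log2 difference. Akr1b8, an aldo-keto reductase that reduces reactive aldehydes, had a lowest, median and highest log2 level of 7.86, 8.73 and 9.49 in BB cultures and of 4.70, 5.20 and 7.51 in allogeneic cultures. The groups did not overlap, and allogeneic replicate 15 held the highest of the allogeneic values. Akr1b8 rose by log2 3.27 (SE 0.26, limma adjusted p = 2.08e-08), and by 2.92 in the strictest setting (adjusted p = 0.0014). On 10 of 12 allogeneic arrays it read under the array's own median, a level near background where differences are compressed, so no linear fold is given. Nqo1, a quinone reductase that is a standard target of the transcription factor NRF2, had levels of 7.94, 8.36 and 8.99 in BB cultures and 5.98, 6.19 and 8.45 in allogeneic cultures. All but 1 of the allogeneic arrays lay below every BB array, the exception being replicate 15, since the next highest allogeneic value was 6.84. Nqo1 rose by log2 1.95 (SE 0.205, adjusted p = 3.8e-06). Slc7a11, the cystine transporter that feeds glutathione synthesis, had levels of 5.83, 6.36 and 7.42 in BB cultures and 4.52, 4.97 and 5.82 in allogeneic cultures, which did not overlap. It rose by log2 1.31 (SE 0.167, adjusted p = 2.51e-05), and it too read under the array median on 10 of 12 allogeneic arrays. Hmox1, which breaks down haem, had levels of 6.42, 6.89 and 7.35 in BB cultures and 5.36, 5.74 and 7.13 in allogeneic cultures, overlapping through replicate 15, and rose by log2 1.03 (SE 0.158, adjusted p = 0.000109).

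Of 32 measured genes of the NRF2 and redox list, 13 rose (40.6%, against 28.1% of all genes) and 2 fell, with a median log2 difference of 0.31 against 0.04 over all genes. After the second quantile normalisation 9 rose, against 14.1% of all genes, and 1 fell, with a median of -0.01, and in the strictest setting 4 passed, Akr1b8, Nqo1, Slc7a11 and Hmox1. Heat shock genes had 4 of 11 higher and 0 lower as deposited, led by their transcription factor Hsf1 at log2 1.09, and 0 passed in the strictest setting.

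**Figure D2:**
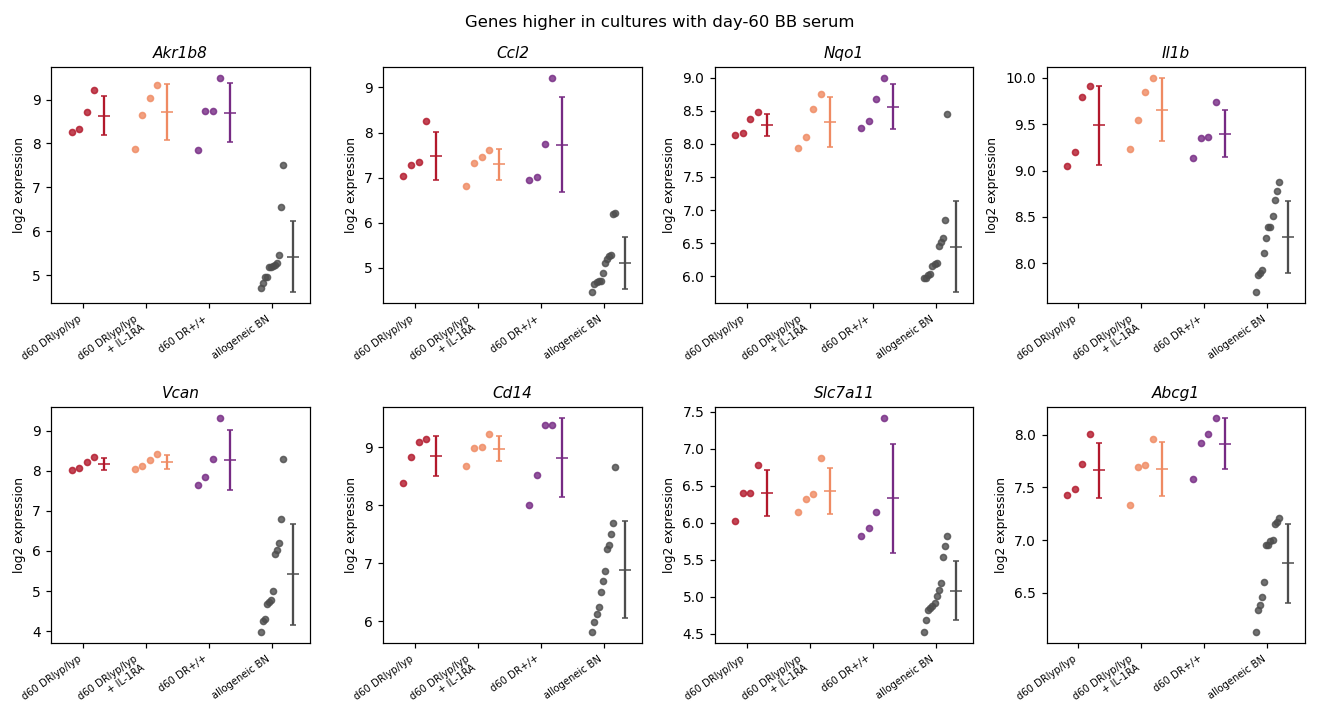
Log2 expression (y axis) on each array for 8 genes that rose, by serum (x axis). Points are arrays (4 per BB serum, 12 allogeneic), and the bars beside them give the mean and SD. In Akr1b8, Ccl2, Il1b, Slc7a11 and Abcg1 no allogeneic array reaches a BB array, and in Nqo1, Vcan and Cd14 allogeneic replicate 15 does.

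The sequence upstream of inflammatory members is shown because NF-κB genes were among the lists with the highest share of members up. The NF-κB consensus site was searched on both strands in 300-base RefSeq promoters (GRCr8, 250 bases before to 50 after the start), which were on hand for 11733 of the 14217 genes. It was found in 579 of them (4.93%) and in 9 of 17 promoters of the NF-κB list, a list made up of known subunits, inhibitors and targets of this factor. Among genes higher in all 6 settings 8 of 93 promoters held it (8.6%), and among those lower 2 of 61 (3.28%). The 250 bases upstream of the start are given below for the chemokine genes Cxcl1 and Cxcl2, the inhibitor Nfkbia and the subunit Nfkb2. These genes were picked by hand and each holds a match, so they do not stand for the list. Matches are in capitals, with overlapping matches merged into 1 run.
Cxcl1 (chr14:17479322-17479571, minus strand): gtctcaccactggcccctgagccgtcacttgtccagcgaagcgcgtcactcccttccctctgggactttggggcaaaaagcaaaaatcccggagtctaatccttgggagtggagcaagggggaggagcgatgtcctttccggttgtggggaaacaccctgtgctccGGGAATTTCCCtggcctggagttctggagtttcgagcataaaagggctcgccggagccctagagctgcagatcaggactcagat
Cxcl2 (chr14:17467256-17467505, minus strand): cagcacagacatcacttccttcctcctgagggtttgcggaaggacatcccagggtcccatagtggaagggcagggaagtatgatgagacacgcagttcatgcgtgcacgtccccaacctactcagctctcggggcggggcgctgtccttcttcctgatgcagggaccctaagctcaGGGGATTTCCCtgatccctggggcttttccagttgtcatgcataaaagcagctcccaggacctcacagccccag
Nfkbia (chr6:78597073-78597322, minus strand): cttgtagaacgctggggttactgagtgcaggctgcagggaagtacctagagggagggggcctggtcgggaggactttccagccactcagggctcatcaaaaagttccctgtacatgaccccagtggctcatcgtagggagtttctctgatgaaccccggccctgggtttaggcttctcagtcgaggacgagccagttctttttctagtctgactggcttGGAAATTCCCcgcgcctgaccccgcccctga
Nfkb2 (chr1:255108124-255108373, plus strand): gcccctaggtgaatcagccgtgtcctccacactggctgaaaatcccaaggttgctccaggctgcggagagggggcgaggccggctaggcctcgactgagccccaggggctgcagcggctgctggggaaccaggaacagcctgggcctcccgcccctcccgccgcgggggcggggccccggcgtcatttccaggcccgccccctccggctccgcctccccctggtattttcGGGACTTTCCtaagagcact
The runs lie 84 to 74 bases before the start in Cxcl1, 74 to 64 in Cxcl2, 31 to 22 in Nfkbia and 20 to 11 in Nfkb2. The promoter of Il1b had no match in this window. The core of the antioxidant response element that NRF2 binds, TGACNNNGC, was in 1685 of the 11733 promoters (14.4%) on either strand and in 5 of 28 promoters of the redox list, with no match in the windows of Akr1b8, Nqo1 and Slc7a11.

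Some chemokines for myeloid cells rose with BB serum. Ccl2, which draws monocytes out of blood, had levels of 6.81, 7.34 and 9.21 in BB cultures and 4.46, 5.00 and 6.21 in allogeneic cultures. The groups did not overlap, and Ccl2 rose by log2 2.39 (SE 0.232, limma adjusted p = 9.61e-07), and by 2.27 in the strictest setting (adjusted p = 0.0026). It read under the array median on 10 of 12 allogeneic arrays and on 0 of 12 BB arrays. Cxcl2, a neutrophil attractant, had levels of 8.40, 8.88 and 9.36 in BB cultures and 6.52, 7.62 and 9.04 in allogeneic cultures, which overlapped, and it rose by log2 1.32 (SE 0.202, adjusted p = 0.000104). Its relative Cxcl1 lay near background, at 4.47, 4.84 and 5.48 in BB cultures and 3.83, 4.12 and 4.34 in allogeneic cultures, without overlap. Cxcl1 rose by log2 0.78 (SE 0.0975, adjusted p = 2.28e-05). Ccr1, a receptor for CC chemokines on monocytes, rose by log2 1.32 (adjusted p = 1.89e-05), while Ccr2, the receptor for the Ccl2 product, fell by 0.56 at a level under the array median, a call that ended in the strictest setting. Of 18 measured CC chemokines and their receptors 4 rose and 4 fell, and of 26 cytokines and CXC chemokines 5 rose and 7 fell, so neither list moved one way. Over all genes 28.1% rose and 17.7% fell.

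Genes that make and process interleukin-1 were among those that rose. Il1b, the secreted cytokine IL-1β, had levels of 9.05, 9.45 and 10.00 in BB cultures and 7.69, 8.33 and 8.88 in allogeneic cultures, without overlap. It rose by log2 1.23 (2.35-fold, SE 0.152, limma adjusted p = 2.22e-05) and by 1.04 in the strictest setting (adjusted p = 0.01). Il1rn, which encodes the antagonist, read under the array median on 12 of 12 BB arrays and 10 of 12 allogeneic arrays, so its log2 difference of -0.22 (adjusted p = 0.0877) is limited by background. The decoy receptor Il1r2 had a difference of -0.36 (adjusted p = 0.223). Pycard, the adaptor that links inflammasome sensors to caspase-1, had levels of 7.69, 8.36 and 9.54 in BB cultures and 5.56, 6.93 and 7.95 in allogeneic cultures, which overlapped, and rose by log2 1.5 (SE 0.206, adjusted p = 4.48e-05). The IL-1 receptor kinases Irak2 and Irak1 rose by 0.98 and 0.67 as deposited, and neither passed in the strictest setting. Of 20 measured members of the IL-1 family list 9 rose (45%, against 28.1% of all genes) and 3 fell (15%, against 17.7%). Their median was 0.40, and after the second quantile normalisation 5 rose and 2 fell, against 14.1% and 13.4% of all genes.

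NF-κB genes rose as deposited in 15 of 21 measured cases (71.4%, against 28.1% of all genes), with 1 lower and a median of 0.73. Ier3, an early-response survival gene, had levels of 6.04, 7.0 and 7.72 in BB cultures and 5.37, 5.68 and 6.43 in allogeneic cultures, overlapping at their edges, and rose by log2 1.34 (SE 0.154, adjusted p = 9.59e-06). Nfkb2 rose by 1.30, the inhibitor Nfkbia by 1.19 and the costimulatory receptor Cd40 by 0.98. After the second quantile normalisation 11 rose and 2 fell (median 0.41), against 14.1% and 13.4% of all genes. In the strictest setting Ier3 was the 1 member that passed, with Nfkb2 at 0.74 (adjusted p = 0.35) and Nfkbia at 0.56 (adjusted p = 0.26). Hivep1, a zinc-finger protein that binds NF-κB sites, was among the 15 largest increases at log2 1.51 (adjusted p = 9.59e-06) and passed in all 6 settings. It read under the array median on 12 of 12 allogeneic arrays and 1 of 12 BB arrays, so its size is limited by background.

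Several monocyte surface receptors rose with BB serum. Cd14, the co-receptor for lipopolysaccharide, had levels of 8.00, 9.0 and 9.38 in BB cultures and 5.81, 6.77 and 8.67 in allogeneic cultures, overlapping through replicate 15. It rose by log2 2.00 (SE 0.252, limma adjusted p = 2.48e-05) and by 1.63 in the strictest setting (adjusted p = 0.023). Pilra, an inhibitory receptor of myeloid cells, rose by 2.18, the inhibitory Fcγ receptor Fcgr2b by 1.37, the high-affinity Fcγ receptor Fcgr1a by 1.13 and the inhibitory lectin Clec12a by 1.02, and all 4 passed in all 6 settings. Gpnmb, a lysosomal glycoprotein of macrophages, rose by 1.85 and the pore-forming Mpeg1 by 1.78 (another probe set at -0.26), but both missed the threshold in the strictest setting (adjusted p = 0.095 and 0.066). Of 29 measured monocyte genes 13 rose (44.8%, against 28.1% of all genes) and 3 fell (10.3%, against 17.7%). Their median was 0.29, and after the second quantile normalisation 13 rose and 1 fell, against 14.1% and 13.4% of all genes. In 13 of the 15 genes with the largest increase the highest allogeneic value was that of replicate 15, and in the other 2 that of replicate 7.

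Genes for extracellular matrix and its receptors included several of the largest increases. Vcan, the proteoglycan versican, had levels of 7.65, 8.17 and 9.32 in BB cultures and 3.98, 4.89 and 8.29 in allogeneic cultures. The groups overlapped through replicate 15 alone, the next allogeneic value being 6.80, and Vcan rose by log2 2.80 (SE 0.351, adjusted p = 2.28e-05), with 7 of 12 allogeneic arrays under the array median, while another of its probe sets was at -0.035. Fn1, fibronectin, had levels of 8.88, 9.76 and 11.20 in BB cultures and 6.30, 7.39 and 9.92 in allogeneic cultures, which overlapped, and rose by log2 2.17 (SE 0.32, adjusted p = 7.63e-05). Of 25 measured matrix and adhesion genes 9 rose (36%, against 28.1% of all genes) and 3 fell (12%, against 17.7%) as deposited, 11 and 4 after the second quantile normalisation and 5 and 0 in the strictest setting. Those 5 were Vcan, Fn1, the membrane protease Mmp14 (1.23, with another probe set at -0.15), the endocytic adaptor Dab2 (0.83) and thrombomodulin Thbd (1.07, at levels of 3.98 to 4.93 in BB cultures). Tgfbi, a secreted matrix protein, rose by 2.06 as deposited and missed the threshold in the strictest setting (adjusted p = 0.072). Vim, the filament protein vimentin, rose by 1.70 and passed in all 6 settings.

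Both measured cholesterol exporters named here rose without overlap. Abca1, which loads cholesterol onto lipid-poor particles, had levels of 6.79, 7.15 and 8.42 in BB cultures and 6.00, 6.25 and 6.6 in allogeneic cultures and rose by log2 0.98 (SE 0.133, limma adjusted p = 4.25e-05). Abcg1, its partner in export, had levels of 7.33, 7.72 and 8.15 in BB cultures and 6.13, 6.95 and 7.21 in allogeneic cultures and rose by log2 0.97 (SE 0.133, adjusted p = 4.48e-05). Another probe set of Abcg1 was at -0.080. Both are targets of the liver X receptors. Of 26 measured liver X receptor and lipid genes 12 rose (46.2%, against 28.1% of all genes) and 2 fell (7.69%, against 17.7%). Their median was 0.29, and after the second quantile normalisation 7 rose and 3 fell, against 14.1% and 13.4% of all genes. As deposited Fabp5, a fatty acid carrier, was at 1.34. Cpt1a, which admits fatty acids to mitochondria, was at 1.10 (another probe set at -0.32). In the strictest setting the 2 exporters passed and no other member did.

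MHC class II genes, which present antigen on monocytes and B cells, rose in 8 of 12 measured cases (66.7%, against 28.1% of all genes) and fell in 1. With the second quantile normalisation 5 rose and 1 fell, and in the strictest setting 1 rose and 1 fell. RT1-Bb, a class II β chain, had levels of 9.02, 9.57 and 10.55 in BB cultures and 7.63, 8.16 and 9.20 in allogeneic cultures, which overlapped, and rose by log2 1.33 (SE 0.178, adjusted p = 3.92e-05), with another probe set at -0.014. The invariant chain Cd74 rose by 0.99 and the master regulator Ciita by 0.87, neither of them passing in the strictest setting. Marchf8, a ubiquitin ligase that removes class II molecules from the surface, was the member that fell, by 0.49, and did so in all 6 settings. In the complement and iron list C3 rose by 1.13 in all 6 settings. Of the 15 measured members of that list 4 were higher (26.7%, against 28.1% of all genes) and 4 lower (26.7%, against 17.7%).

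Endoplasmic reticulum and amino acid stress genes had the highest share of members up as deposited, 18 of 25 (72%). None was lower, and the median was 0.64. Over all genes 28.1% rose and 17.7% fell. Ddit3, the stress factor CHOP, rose by 1.25, the chaperone Hspa5 by 1.04 and Atf4 by 0.91. After the second quantile normalisation 10 rose and 1 fell (median 0.29), against 14.1% and 13.4% of all genes. In the strictest setting 0 passed, and Ddit3 was at 0.85 (limma adjusted p = 0.13). Interferon response genes showed 12 of 30 higher (40%) and 2 lower (6.67%), led by Irf1 at 1.34. After the second quantile normalisation 9 rose and 2 fell, and Mx1 (0.87) was the 1 member that passed in all 6 settings. Among immediate early genes 11 of 28 rose (39.3%) and 3 fell (10.7%). Klf2, a transcription factor of quiescent lymphocytes and monocytes, had levels of 9.43, 11.01 and 11.62 in BB cultures and 8.95, 9.50 and 10.22 in allogeneic cultures, which overlapped, and rose by 1.35 (SE 0.176, adjusted p = 2.72e-05) in all 6 settings, with another probe set at -0.19. Of 15 measured pattern receptors and adaptors 6 rose (40%) and 1 fell (6.67%). Those that rose included Tlr4, the lipopolysaccharide receptor, at 0.86 and its adaptor Ticam1 at 0.69 (another probe set at -0.27). Ticam1 passed in all 6 settings, and Tlr4 did not in the strictest (adjusted p = 0.074).

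**Figure D3:**
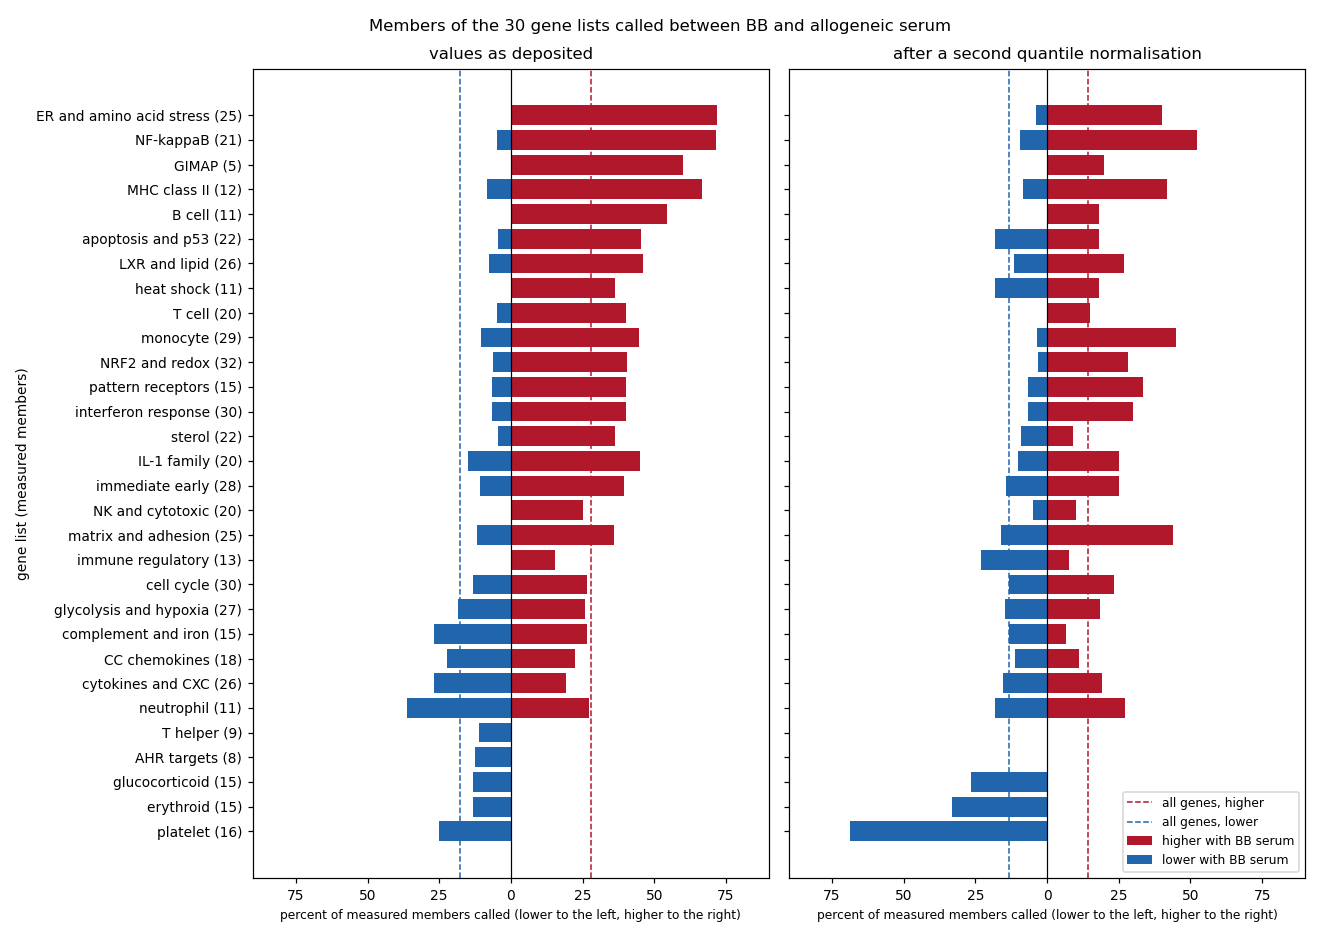
Percent of the measured members of each of 30 gene lists that passed an adjusted p of 0.05, higher with BB serum to the right in red and lower to the left in blue (x axis), with the number of measured members beside each list name. Dashed lines give the same percent over all genes, which is 28.1% higher and 17.7% lower as deposited (left panel) and 14.1% higher and 13.4% lower after the second quantile normalisation (right panel). The platelet list has 0 members higher in both panels.

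Lymphocyte genes were called as deposited and not in the strictest setting. As deposited 8 of 20 T-cell genes rose and 1 fell (median 0.43), 6 of 11 B-cell genes rose and 0 fell (median 0.50), and 5 of 20 natural killer and cytotoxic genes rose and 0 fell (median 0.24). These shares are set against 28.1% of all genes higher. After the second quantile normalisation 3 T-cell, 2 B-cell and 2 natural killer genes rose, against 14.1% of all genes. In the strictest setting 0 of each list passed in either direction. Of the 6 defining T-cell markers Cd3d, Cd3e, Cd3g, Cd2, Cd5 and Lck, all above the array median on all 24 arrays, 3 rose as deposited and 0 after the second quantile normalisation. Their summed level ran from 3945 to 11005 in BB cultures and from 3486 to 8876 in allogeneic cultures. Of the 5 measured GIMAP genes, a family of lymphocyte GTPases, 3 rose as deposited and 0 in the strictest setting. Neutrophil genes had 3 of 11 higher (27.3%, against 28.1% of all genes) and 4 lower (36.4%, against 17.7%). The neutrophil markers Cxcr2 and Camp stayed under the array median on all 24 arrays, with Cxcr2 called lower at -0.26 (limma adjusted p = 0.00702). As deposited S100a9 rose by 0.83, S100a8 by 0.65 and Csf3r by 0.46. Csf3r read under the array median on 10 of 12 BB and 12 of 12 allogeneic arrays. After leaving out the 5 arrays 0 neutrophil genes passed in either direction.

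Genes lower with BB serum had mixed roles, from the cytoskeleton and cyclic nucleotide signalling to iron export. The part of platelet content in these decreases was not tested. Map1b, a microtubule-binding protein, had levels of 6.14, 6.31 and 6.77 in BB cultures and 6.89, 7.52 and 8.42 in allogeneic cultures, without overlap. It fell by log2 1.23 (SE 0.17, limma adjusted p = 4.66e-05), and by 1.06 in the strictest setting (adjusted p = 0.0077). Arhgap28, a GTPase-activating protein, had levels of 5.90, 6.57 and 7.23 in BB cultures and 6.94, 8.17 and 9.16 in allogeneic cultures, which overlapped, and fell by log2 1.64 (SE 0.244, adjusted p = 8.7e-05). Gucy1b1, the β subunit of the nitric oxide receptor guanylate cyclase, had levels of 6.69, 6.94 and 7.71 in BB cultures and 7.14, 8.26 and 9.34 in allogeneic cultures, which overlapped, and fell by log2 1.35 (SE 0.227, adjusted p = 0.000221). Rps6ka5, a nuclear stress kinase, had the largest decrease, by log2 1.66 (SE 0.307, adjusted p = 0.000461), and passed in all 6 settings, as did the potassium channel subunit Kcnab1 (-1.42) and Dennd2c (-1.45). Slc40a1, the iron exporter ferroportin, had levels of 8.63, 8.89 and 9.50 in BB cultures and 9.04, 10.16 and 10.91 in allogeneic cultures, which overlapped, and fell by log2 1.08 (SE 0.185, adjusted p = 0.000257). Ddx6 was listed at -1.28, but its other probe sets were at 0.43 and 2.75, so no direction is given for it.

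**Figure D4:**
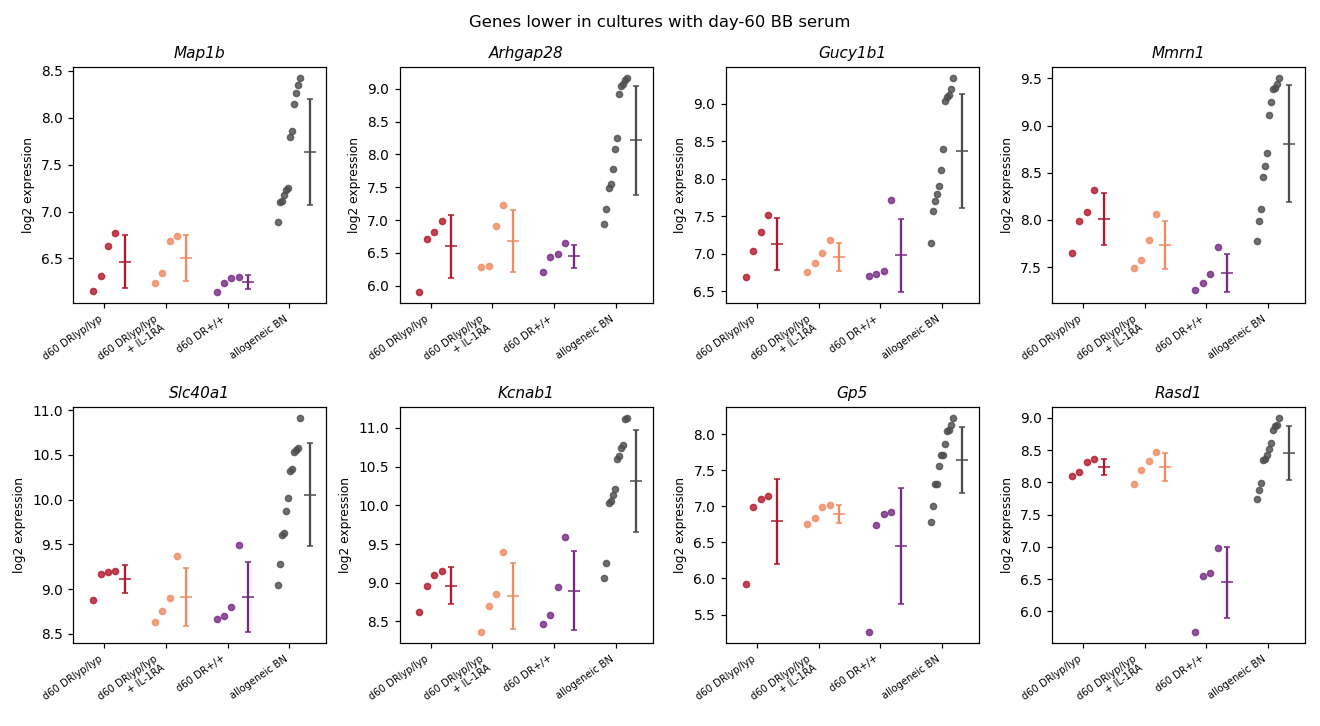
Log2 expression (y axis) on each array for 8 genes that fell, by serum (x axis), with the mean and SD beside the points (4 arrays per BB serum, 12 allogeneic). Map1b shows no overlap between BB and allogeneic arrays, and in Rasd1 the 4 arrays with DR+/+ serum lie below all others.

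The platelet list had 0 of 16 measured genes higher (against 28.1% of all genes) and 4 lower (25%, against 17.7%) as deposited. Its median was -0.38. Mmrn1, the platelet matrix protein multimerin, had levels of 7.26, 7.68 and 8.32 in BB cultures and 7.77, 8.91 and 9.50 in allogeneic cultures, which overlapped. It fell by log2 1.08 (SE 0.187, limma adjusted p = 0.00026) and in all 6 settings. Gp5, a subunit of the von Willebrand factor receptor, fell by 0.93, the ADP receptor P2ry12 by 0.85 and Vwf by 0.73. After the second quantile normalisation 11 of 16 fell, against 13.4% of all genes, with 16 of 16 differences below 0 and a median of -0.74. In the strictest setting 1 fell, Mmrn1, with a list median of -0.56. Some abundant platelet markers did not pass as deposited. Pf4, the platelet chemokine, had a difference of 0.36 (adjusted p = 0.0852) as deposited and -0.05 in the strictest setting, and Tubb1, the platelet tubulin, one of -0.03 (adjusted p = 0.933). The summed linear level of 6 platelet markers, in which high-level genes such as Pf4 weigh most, ran from 15811 to 24432 (median 21370) in BB cultures. In allogeneic cultures it ran from 7280 to 26761 (median 18919). The median log2 difference of these 6 was -0.31 as deposited, with 0 higher and 1 lower (against 17.7% of all genes). After the second quantile normalisation it was -0.68, with 0 higher and 4 lower (against 13.4%). The part of platelet content was not tested. Other genes known from platelets were among the 77 that fell in all 6 settings, picked here after their values were seen, so their common direction follows from the choice. They were the serotonin transporter Slc6a4 (-0.87), the vesicular monoamine transporter Slc18a2 (-0.87), the adhesion molecules Pecam1 (-0.76) and F11r (-1.05), the tetraspanin Cd9 (-1.11), the G-protein subunit Gnaz (-1.02) and the signalling regulator Rgs18 (-0.77). Gnaz did not overlap, at 5.39 to 6.04 in BB cultures and 6.06 to 7.46 in allogeneic cultures.

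Each BB serum was also set against the same 12 allogeneic arrays, which the 3 comparisons therefore share. DRlyp/lyp serum gave 1737 genes higher (12.2%) and 422 lower (2.97%), DRlyp/lyp serum with IL-1RA 761 higher (5.35%) and 225 lower (1.58%), and DR+/+ serum 1805 higher (12.7%) and 812 lower (5.71%). Of the 122 genes higher in all 6 settings, 114 passed with DRlyp/lyp serum, 103 with added IL-1RA and 121 with DR+/+ serum. Of the 77 lower, 61 passed with DRlyp/lyp serum, 52 with added IL-1RA and 75 with DR+/+ serum. Both sets were chosen by the mean over the same 3 sera, so passing with each serum follows in part from the choice. The counts for each serum rested on few arrays. Without the 5 allogeneic arrays that stood apart, 13, 14 and 554 probe sets passed with these sera in the order given, against 3573, 1617 and 4849 with all 12, and leaving out DRlyp/lyp replicate 1 left 39 with DRlyp/lyp serum. Akr1b8 was higher by log2 3.21 with DRlyp/lyp serum, 3.30 with IL-1RA and 3.29 with DR+/+ serum, and Ccl2 by 2.37, 2.19 and 2.62.

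No gene passed the test between DRlyp/lyp serum with and without the antagonist. Il1b read 10.00, 9.85, 9.24 and 9.55 on the 4 arrays with IL-1RA, against 9.79, 9.91, 9.20 and 9.05 on those with DRlyp/lyp serum alone. The ranges overlapped, and the log2 difference between these sera was 0.17 (SE 0.263). For Ccl2 it was -0.18 (SE 0.402). Both SEs are from the fit without a replicate block. Adding IL-1RA changed 0 of 31042 probe sets at an adjusted p of 0.05 in limma's fit, with 748 at an unadjusted p under 0.05, and 0 with the replicate number as a block (2062 unadjusted with a random block in all 24 arrays, 1711 with a fixed block). Genes such as Klf2, at 0.84 with DRlyp/lyp serum, 1.36 with IL-1RA and 1.84 with DR+/+ serum, did not pass the test among the sera (adjusted p = 1.00).

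Rasd1, a small GTPase induced by glucocorticoids, was the exception, being the 1 probe set of 31042 (1 of 14217 genes, 0.00703%) that differed among the 3 BB sera (limma F test, adjusted p = 0.00404, with 735 probe sets at an unadjusted p under 0.05). It read 6.98, 5.68, 6.59 and 6.55 with DR+/+ serum. With DRlyp/lyp serum it read 8.37, 8.16, 8.31 and 8.10, with IL-1RA added 7.97, 8.19, 8.33 and 8.47, and in allogeneic cultures from 7.75 to 9.0. The 4 DR+/+ arrays lay below the other 20, at log2 -2.01 from allogeneic serum (SE 0.218, adjusted p = 1.98e-05), while DRlyp/lyp serum was at -0.22 (adjusted p = 0.48). The mean difference over the 3 BB sera was -0.81, and -0.60 (adjusted p = 0.087) against all 15 allogeneic arrays. DRlyp/lyp minus DR+/+ serum was log2 1.78 (SE 0.267). Without DR+/+ replicate 2, or without the BB arrays numbered 4, the F test called 0 probe sets. Among the 12 BB arrays with replicate number as a fixed block the F test called 0 probe sets (2095 unadjusted) and Rasd1 had an adjusted p of 0.209, and with a random block in all 24 arrays it had 7.7e-05 (2456 unadjusted). DRlyp/lyp and DR+/+ arrays of the same number deviated together, and with the random block 3 probe sets, Rasd1, Parm1 and Crispld2, differed between these 2 sera instead of 1. In the glucocorticoid list, 0 of 15 measured genes rose (against 28.1% of all genes) and 2 fell (13.3%, against 17.7%). Those 2 were Rasd1 and the transglutaminase Tgm2 (-0.34, with another probe set at 0.79), and Tgm2 did not pass in the strictest setting (adjusted p = 0.197).

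**Figure D5:**
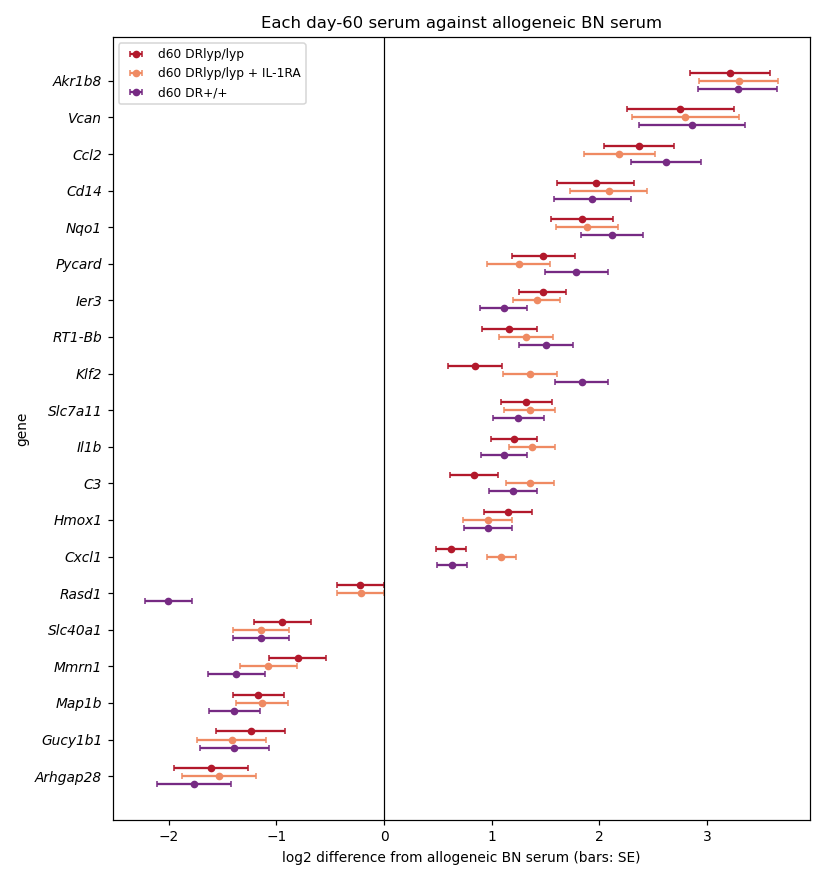
Log2 difference from allogeneic BN serum (x axis, bars give the SE) for 20 genes (y axis) with each of the 3 day-60 sera, 4 arrays each against the same 12 allogeneic arrays. The 3 sera lie on the same side of 0 for every gene drawn. The genes were picked with their mean difference over these same sera known, so a shared side follows in part from the choice. Rasd1 is at -2.01 with DR+/+ serum against -0.22 with both DRlyp/lyp sera.

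The remaining lists had 0 members that passed in the strictest setting. As deposited, 28.1% of all genes were higher and 17.7% lower. Cell cycle genes had 8 of 30 higher (26.7%) and 4 lower (13.3%), led by the replication helicase subunit Mcm6 at 1.07, apoptosis and p53 genes 10 of 22 and 1, glycolysis and hypoxia genes 7 of 27 (25.9%) and 5, and sterol genes 8 of 22 and 1. Erythroid genes had 0 of 15 higher and 2 lower, immune regulatory genes 2 of 13 higher and 0 lower with Tnfsf13, the B-cell factor APRIL, at 1.27, T helper genes 0 of 9 and 1, and aryl hydrocarbon receptor targets 0 of 8 and 1. Erythroid markers were well above background, with Hbb at a mean of 14.32 in BB cultures and 13.96 in allogeneic cultures (adjusted p = 0.0675).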

How the data were processed

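Expression of cultured PBMCs was measured on 53 Affymetrix rat arrays, of which 24 were analysed here. The deposited table holds log2 expression per probe set, and per the submitters' processing notes RMA and Partek 6.2 were used, with no role or RMA version given. RMA combines background correction, quantile normalisation and a summary over the probes of a set, which compresses differences near background. Precision is limited by how many arrays there were. Tests ran on 31042 of 31099 probe sets, leaving out 57 controls. The platform's gene table gave 1 symbol for 20826, several for 436 and none for 9780, which left 14217 genes. Genes are named by symbol, and coordinates are those of RefSeq promoters on GRCr8.

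The 4 groups were fitted with limma 3.58.1 in R 4.3.3 (variance trend, Benjamini-Hochberg adjustment over 31042 probe sets, called at an adjusted p under 0.05), and the contrast was the mean of the 3 BB groups minus the allogeneic group. SEs and adjusted p-values are limma's. Figures were drawn with matplotlib 3.10.9. The members, the 30 gene lists and the choice of allogeneic replicates were made with earlier results of these data known. Named genes were the 15 largest called increases and 15 largest decreases (leaving out unnamed loci), up to 4 called members per list or 2 with the smallest p, Il1b, Il1rn, Il1r2, Ccl2, Nqo1, Hmox1 and Akr1b8, and genes called among the BB sera. Other genes named, such as list members called in all 6 settings and cell type markers, were picked after their values were seen. The 5 settings with arrays left out, equal standard deviations or combined changes were chosen after seeing the data. Residuals of BB arrays with the same replicate number correlated across genes at 0.0393 to 0.663 (mean 0.375, against -0.121 for other numbers). By the minimum of 0.1 for every pair, DRlyp/lyp and DR+/+ arrays were paired (lowest 0.175) and the pairs with IL-1RA arrays were not (lowest 0.0706 and 0.0393). In the latter only arrays numbered 1 fell under 0.1. Their means were 0.384 and 0.357, against 0.384 for DRlyp/lyp with DR+/+ arrays. BB and allogeneic arrays share number 4 alone, so the block for that comparison was random. The highest correlation between 2 arrays was 0.996, so no 2 arrays held the same values.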

Additional observations from a re-analysis of the deposited data

Results flagged for a closer look

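Replicates of 4 arrays were searched for single arrays far from the other 3, in 393 sets of 4 arrays, made of 130 named genes and the actin difference in each of the 3 BB sera. Chance places about 1 in 20 there, and 29 were found. Of these, 15 were DR+/+ replicate 4, the array with the lowest actin 3′ to 5′ difference. Its log2 level was above that of the other 3 DR+/+ arrays at 9.32 for Pilra, 7.71 for Gucy1b1, 6.67 for Adam22, 10.2 for Dnaja1, 5.44 for Cxcl1, 7.72 for Tlr4, 4.95 for Xk, 9.86 for Dnajc3, 9.5 for Gimap1 and 9.5 for Slc40a1. It was below them at 8.33 for Irf1, 7.92 for Cd37, 5.26 for Gp5, 10.7 for Mcm7 and 9.2 for Hspa5. In the other DR+/+ arrays replicate 1 stood at 10.8 for Stat2, and replicate 3 at 10.2 for Tcf7, 7.52 for Eomes and 8.59 for Ddit3. With DRlyp/lyp serum replicate 3 was at 5.92 for Gp5 and 8.88 for Slc40a1, and replicate 4 at 5.62 for Ccr3. With IL-1RA added, replicate 1 was at 5.75 for Jchain. Replicate 2 of that serum was at 11 for Gpnmb, 8.91 for Lgals3 and 5.88 for Tlr7, and replicate 3 at 8.16 for Irak2, 13.4 for Cd74 and 8.57 for Fcgr2b. The part of RNA integrity in these values was not tested.

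Rasd1 differed among the 3 BB sera by the test of the difference itself (limma F test, adjusted p = 0.00403592), with all 4 DR+/+ arrays below the 8 DRlyp/lyp arrays. With replicate number as a fixed block among the BB arrays it did not pass (F test, adjusted p = 0.209). The call was also lost without DR+/+ replicate 2 and without the BB arrays numbered 4.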

How the results depend on the processing

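The count of probe sets called depended strongly on the setting. As deposited 12354 of 31042 were called between BB and allogeneic serum. The count was 2357 with all 15 allogeneic arrays, 1905 with same-numbered BB arrays averaged, 7691 after the second quantile normalisation, 7487 of probe sets above the median level, 6199 at an adjusted p under 0.01, 4575 where a size of at least 0.5 (log2) was also required, 1381 without the 5 allogeneic arrays and 415 in the strictest setting. With the replicate number of BB arrays as a block it was 7651, and 4614 with the quantile normalisation added. Leaving out 1 array gave 10284 to 14730.

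For the single sera, in the order DRlyp/lyp, with IL-1RA and DR+/+, the counts were 3573, 1617 and 4849 as deposited. They were 134, 23 and 69 with all 15 allogeneic arrays, 1583, 342 and 2875 after the quantile normalisation, 1513, 368 and 2841 with the block added to it, and 8576, 7833 and 12637 with array weights. At an adjusted p under 0.01 they were 355, 28 and 940, without the 5 allogeneic arrays 13, 14 and 554, without the BB arrays numbered 4 7394, 2686 and 7665, and in the strictest setting 43, 14 and 393. The actin difference as a covariate gave 6859 for DRlyp/lyp serum and 5946 with IL-1RA, and one standard deviation for all arrays 2159 and 481. Leaving out 1 array gave 39 (without DRlyp/lyp replicate 1) to 5902 (without DRlyp/lyp replicate 4), 17 (without IL-1RA replicate 2) to 4040 (without DR+/+ replicate 4), and 1338 (without DR+/+ replicate 1) to 7832 (without DR+/+ replicate 4). Counts thus rose in some settings with fewer arrays and fell in others, and they fell with all 15 allogeneic arrays. The causes of these moves were not tested.

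The test among the BB sera called 0 with the fixed block, 0 without the BB arrays numbered 4, and 0 to 1 on leaving out 1 array, 0 without DR+/+ replicate 2. Of the 24 checks, 19 found an array correlating best with its own number. The random block left every log2 difference as it was, so no direction could change with it.

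None of the 130 named genes changed direction under another setting. The call was lost in 409 combinations of gene and setting and gained in 4, all in Il1r2 and Il1rn. Most of the named genes were chosen as called changes, and settings such as the block cannot change a direction. Signs of list members did move. Of 32 measured NRF2 and redox genes 5 were below 0 as deposited and 17 after the second quantile normalisation. Of 22 apoptosis and p53 genes it was 4 and 9, and of 26 cytokines and CXC chemokines 15 and 14. Other probe sets of a gene ran the opposite way for Vcan (-0.035), Mpeg1 (-0.26), Snx10 (-0.23), Ddx6 (2.75 and 0.43), Adam22 (0.21), Ifit2 (-0.19), RT1-Bb (-0.014), Cd8a (-0.20), Jchain (-0.24), Mmp14 (-0.15), Ticam1 (-0.27), Klf2 (-0.19), Fos (-0.72), Ier5 (-0.32 and -0.025), Pfkfb3 (-0.38 and -0.20), Egln1 (-0.14), Cpt1a (-0.32), Abcg1 (-0.080) and Tgm2 (0.79). Genes under the array median, such as Cxcl1 and Thbd, are limited by background.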

Other observations

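Some genes outside the lists were also among those called in all 6 settings, and they were picked after their values were seen. Ets2, a transcription factor of macrophages, read 6.53 to 7.90 in BB cultures and 5.30 to 6.52 in allogeneic cultures, without overlap, and rose by log2 1.35 (limma adjusted p = 7.21e-06). Nup133, a nuclear pore scaffold protein, read 6.33 to 7.40 in BB cultures and 4.55 to 6.2 in allogeneic cultures, and rose by 1.48. Nrp2, a receptor for semaphorins and vascular growth factors, read 6.07 to 7.34 in BB cultures and 4.78 to 6.05 in allogeneic cultures, and rose by 1.05. Sirt5, a mitochondrial deacylase, did not overlap either, and rose by 1.12.

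Among genes that fell, the 2 subunits of the nitric oxide receptor moved together, Gucy1a1 at log2 -0.93 beside Gucy1b1 at -1.35. Mylk, myosin light chain kinase, read 9.48 to 10.24 in BB cultures and 9.83 to 11.12 in allogeneic cultures, which overlapped, and fell by log2 0.86. The laminin receptor subunit Itga6 had a difference of -0.68 and the tetraspanin Tspan9 one of -0.99. The part of platelet content in these values was not tested.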
